A study of Homo sapiens with 3 samples.

Results

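This section describes INHBA and the activin pathway in the human small cell lung cancer line NCI-H209, whose cells have neuroendocrine features. The 10 genes were listed by name: the ligand subunits INHBA, INHBB and INHBE, the antagonists FST and FSTL3, the receptors ACVR1B, ACVR2A and ACVR2B, and the response genes SMAD7 and ID1. They are 10 of 60609 genes in the deposited count tables, and all 10 had reads in every library and entered the fit across 15708 genes. INHBA was chosen by its counts, which were lower in both YES1 hairpin libraries than in the control. The INHBA values in that contrast are therefore a description and carry no test. The others were chosen for their roles beside it, with earlier results of these data known.

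The groups were sh490 and sh1362, cells with a short hairpin RNA against YES1, a Src-family tyrosine kinase, and shGFP, cells with a hairpin against green fluorescent protein. All of them carried a hairpin in the lentiviral, doxycycline-inducible plasmid Tet-pLKO-puro and received doxycycline at 1 µg/mL every 2 days. There was 1 library per hairpin, of polyadenylated RNA. The length of induction, and whether the cells were pools or clones, is information that the labels do not give. This series title ties the work to dasatinib, a kinase inhibitor, in this cancer.

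Activins are dimers of inhibin beta chains, which belong to the TGF-beta family of secreted ligands. Activin A is a dimer of the INHBA chain. Activins bind the type II receptors ACVR2A and ACVR2B, which recruit and phosphorylate the type I receptor ACVR1B, and this receptor phosphorylates SMAD2 and SMAD3. Follistatin (FST) and follistatin-like 3 (FSTL3) bind the ligand and keep it from its receptors. SMAD7 is an inhibitory SMAD that is induced by the pathway it restrains. ID1 encodes an inhibitor of basic helix-loop-helix factors and is best known as a target of SMAD1, SMAD5 and SMAD9, the branch used by bone morphogenetic proteins (BMPs).

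The libraries held 7791747 counts for sh490, 7421552 for sh1362 and 4899006 for shGFP. CPM values are counts scaled to the library size after TMM normalization. YES1, the targeted gene, had 163 and 216 counts in sh490 and sh1362, against 1465 in shGFP. All 11 neuroendocrine markers were detected in every library, the lowest at 25.1 CPM, and together they reached 4052 and 5285 CPM in sh490 and sh1362, against 3916 CPM in shGFP. The shGFP library stands apart in globin transcripts. The 10 red cell markers summed to 18.8 CPM in sh490, 20.4 in sh1362 and 735.1 in shGFP. Of that shGFP sum, HBB held 645.8 CPM, and HBA1 and HBA2 43.0 CPM each. Of the 10 red cell markers, 4, AHSP included, had 0 counts in all libraries. The 10 leukocyte markers summed to 2.27, 3.25 and 10.3 CPM in sh490, sh1362 and shGFP, with 6, 6 and 2 of them at 0. Fibroblast markers summed to 9.58, 7.58 and 7.86 CPM, mostly COL1A1, with DCN, FAP and POSTN at 0, and endothelial markers to 11.6, 5.42 and 19.8 CPM, mostly KDR, with TEK at 0. Every ratio over shGFP below rests on that 1 control library, and the part of the blood transcripts in it was not tested.

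The promoter windows of INHBA and INHBB are shown because these genes encode chains of the same kind of ligand and lay on opposite sides of the control. Each window runs from 250 bases before to 50 bases after the RefSeq start on GRCh38.p14, 5′ to 3′ on the gene's strand. The capitals mark matches to the motifs described after the sequences.
INHBA, chr7:41703041-41703340, minus strand: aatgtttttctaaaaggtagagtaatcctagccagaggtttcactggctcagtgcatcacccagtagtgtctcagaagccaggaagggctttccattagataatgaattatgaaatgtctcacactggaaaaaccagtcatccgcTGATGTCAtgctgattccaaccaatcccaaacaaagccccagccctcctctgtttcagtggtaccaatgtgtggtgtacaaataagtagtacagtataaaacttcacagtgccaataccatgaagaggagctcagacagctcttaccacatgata
INHBB, chr2:120345886-120346185, plus strand: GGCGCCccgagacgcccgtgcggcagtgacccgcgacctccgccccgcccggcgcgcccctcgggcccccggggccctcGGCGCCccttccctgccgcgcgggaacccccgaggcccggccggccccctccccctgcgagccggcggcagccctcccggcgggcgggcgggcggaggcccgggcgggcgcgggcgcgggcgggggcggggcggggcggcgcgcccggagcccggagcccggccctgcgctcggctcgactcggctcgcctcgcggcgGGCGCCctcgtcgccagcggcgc
RefSeq windows were found for 9 of the 10 genes; INHBE had none in the table used. Motifs were searched on both strands: the SMAD palindrome GTCTAGAC, the GC-rich SMAD1 and SMAD5 motif GGCGCC, the AP-1 motif TGANTCA and the cAMP response element or its variant TGANGTCA. None of these overlapped another in the windows shown. The INHBA window was 43.3% G and C and held 1 match, TGATGTCA, from 105 to 98 bases before the start. The INHBB window was 88.7% G and C and held GGCGCC 3 times. Of 35116 windows of the same length, 7.72% held TGANGTCA, 19.2% GGCGCC, 7.71% TGANTCA and 0.202% GTCTAGAC. FST held TGATTCA, ACVR1B and FSTL3 held GGCGCC, and the windows of ACVR2A, ACVR2B, SMAD7 and ID1 held none of the motifs. A match describes the letters and is not evidence of binding.

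INHBA was the member farthest from the control. INHBA (ENSG00000122641.11, chromosome 7, 41667168 to 41705834, on the minus strand of build GRCh38) was counted 39 times in sh490 and 72 times in sh1362, against 197 in shGFP. These equal 4.92 and 9.75 CPM, against 40.7 CPM. Both hairpin libraries were low, and the lower count came from the deepest library. Relative to shGFP this was 12.1% in sh490, with an exact 95% counting interval of 8.34 to 17.1, and 23.9% in sh1362 (18.0 to 31.5). The log2 folds were -2.98 and -2.03. Of 11632 genes averaging 5 CPM or more, 5, INHBA included, lay at or below its log2 folds with both hairpins; the others were YES1 and the globin genes HBB, HBA1 and HBA2. With sh490 alone 5 of these genes, INHBA included, lay at or below its log2 fold, and with sh1362 alone 44 did. In bulk RNA, fewer cells making a transcript and less of it per cell cannot be told apart. The antisense gene INHBA-AS1 shares 248 of the 8284 exonic bases of INHBA, and reads there cannot be assigned by strand. It had 3, 8 and 2 counts in sh490, sh1362 and shGFP.

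INHBB and INHBE lay on the opposite side of the control from INHBA. INHBB (chromosome 2, 120346136 to 120351803), which forms activin B, had 331 and 361 counts in sh490 and sh1362, against 151 in shGFP, or 41.7 and 48.9 CPM, against 31.2. Both hairpin libraries were above shGFP, at 134% (110 to 163) and 157% (129 to 191) of it. INHBE (chromosome 12, 57452323 to 57459280) encodes the activin E chain, made chiefly by liver. It had 468 and 517 counts, against 215, or 59.0 and 70.0 CPM, against 44.4, and ratios of 133% (113 to 157) and 158% (134 to 186). An unnamed antisense gene, ENSG00000287200, shares 16.4% of the INHBE exonic bases and had 15, 9 and 5 counts in sh490, sh1362 and shGFP. Neither INHBB nor INHBE passed edgeR's quasi-likelihood test of both hairpin libraries against shGFP (log2 folds 0.54 ± 0.32 and 0.54 ± 0.30, SE; Benjamini-Hochberg adjusted p 0.986 for each).

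In TPM, which scales counts by exonic length, INHBA stood at 2.31 in sh490 and 4.19 in sh1362, against 18.6 in shGFP. It made up 1.80% and 2.99% of the summed TPM of the 3 subunits in the hairpin libraries, against 16.8% in shGFP. INHBB made up 39.5% and 38.7%, against 33.3%, and INHBE 58.7% and 58.3%, against 49.9%. The low INHBA share follows from the fall by which INHBA was chosen, and the other shares are its complement, so all of them are a description. As a share of counts, INHBA had 39 of 838 in sh490 (4.65%, exact interval 3.33 to 6.31), 72 of 950 in sh1362 (7.58%, 5.98 to 9.45) and 197 of 563 in shGFP (35.0%, 31.1 to 39.1). The summed counts of the 3 subunits were 90.8% of shGFP with sh490 (81.5 to 101.2) and 110.5% with sh1362 (99.5 to 122.9) after scaling, and both intervals hold 100%. Per length the sums were 128 and 140 TPM in sh490 and sh1362, against 111 TPM in shGFP, above the control with both hairpins, so the side of the ligand total with sh490 depends on the scale. The shares do not depend on how libraries are scaled. The exonic length is the union over annotated transcripts, so levels per length are approximate.

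**Figure D1:**
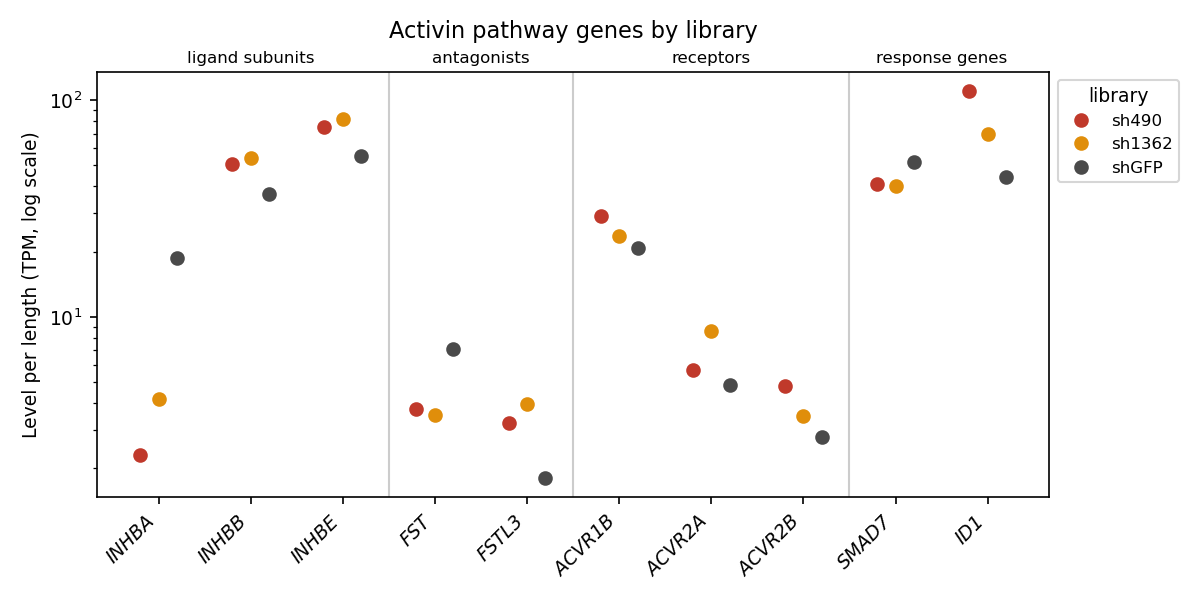
Level per length (TPM, log axis) of the 10 activin pathway genes in sh490, sh1362 and shGFP, 1 point per library and no error bars. INHBA stands at 2.31 and 4.19 TPM in the hairpin libraries and at 18.6 TPM in shGFP, while INHBB and INHBE are above their shGFP level with both hairpins.

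In shGFP the order of levels per length ran from INHBE (55.2 TPM) through SMAD7 (51.9), ID1 (44.4), INHBB (36.8), ACVR1B (20.9), INHBA (18.6), FST (7.11), ACVR2A (4.85) and ACVR2B (2.79) to FSTL3 (1.81). Of the 9 pairs of neighbours in that order, 7 had overlapping exact counting intervals, and INHBB over ACVR1B and INHBA over FST did not. INHBA ranked 10 of 10 in sh490 and 7 in sh1362, against 6 in shGFP. In both hairpin libraries its counting interval overlapped those of FST and FSTL3, so its rank there is not resolved. The lower rank also follows from the fall by which INHBA was chosen. Counting intervals overlapped in 4 of 9 neighbouring pairs in sh490 and in 5 of 9 in sh1362.

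The 2 antagonists lay on different sides of the control at low counts. FST (chromosome 5, 53480626 to 53487134) had 21 and 20 counts in sh490 and sh1362, against 25 in shGFP, or 2.65 and 2.71 CPM, against 5.17. That was 51.2% (27.3 to 95.4) and 52.4% (27.6 to 98.3) of shGFP, low in both hairpin libraries. FSTL3 (chromosome 19, 676392 to 683392) had 20 and 25 counts, against 7, or 2.52 and 3.39 CPM, against 1.45. Its ratios of 174% (70.8 to 488) and 234% (98.4 to 641) have intervals that hold 100%, so a difference in FSTL3 was not detectable at this depth. Summed per length, both antagonists reached 6.98 TPM in sh490 and 7.48 in sh1362, against 8.91 in shGFP, well below the ligand sums of 128, 140 and 111 TPM. Neither gene passed the edgeR test (adjusted p 0.986 for each).

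The 3 receptors among the 10 genes lay above the control with both hairpins, by amounts that did not pass the test. ACVR1B (chromosome 12, 51951699 to 51997078), the type I receptor of the 3, had 337 and 277 counts in sh490 and sh1362, against 151 in shGFP. In CPM these were 42.5 and 37.5, against 31.2. Its ratios were 136% (112 to 166) and 120% (98.2 to 147). ACVR2A (chromosome 2, 147844517 to 147930826) had 75 and 115 counts, against 40, with ratios of 114% (76.9 to 172) and 188% (130 to 277). For ACVR2B (chromosome 3, 38453890 to 38493142) the counts were 154 and 114, against 56, and the ratios 168% (123 to 232) and 133% (96.0 to 187). The intervals of ACVR1B and ACVR2B with sh1362, and of ACVR2A with sh490, hold 100%. The edgeR log2 folds were 0.36 ± 0.32, 0.60 ± 0.50 and 0.59 ± 0.41 (SE), with an adjusted p of 0.986 for each. The gene ORC4 shares 6.67% of the ACVR2A exonic bases on the other strand and had 221, 231 and 107 counts in sh490, sh1362 and shGFP. ACVR1C, listed below with the other receptors of the family, lay on the other side of the control. It had 319 and 260 counts in sh490 and sh1362, against 211 in shGFP, with log2 folds of -0.12 and -0.31. Its ratios were 92.2% (77.3 to 110) and 80.7% (67.0 to 97.3), and it did not pass the edgeR test (adjusted p 0.986).

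The response genes lay on opposite sides of the control. SMAD7 (chromosome 18, 48919853 to 48952052) had 421 and 419 counts in sh490 and sh1362, against 334 in shGFP, or 53.1 and 56.7 CPM, against 69.0. Both hairpin libraries were below shGFP, at 76.9% (66.4 to 89.0) and 82.2% (71.0 to 95.2). ID1 (chromosome 20, 31605283 to 31606515) had 277 and 179 counts, against 70, or 34.9 and 24.2 CPM, against 14.5. Both were above shGFP, at 241% (185 to 318) and 167% (126 to 224). In the edgeR test the log2 fold was -0.33 ± 0.28 for SMAD7 and 1.03 ± 0.39 for ID1 (SE), and neither passed (adjusted p 0.986 for each). ID1 had an unadjusted p of 0.0303 in that edgeR test. It was higher in 2 of 2 hairpin libraries, both set against the same 70 shGFP counts, so the sides are not independent.

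**Figure D2:**
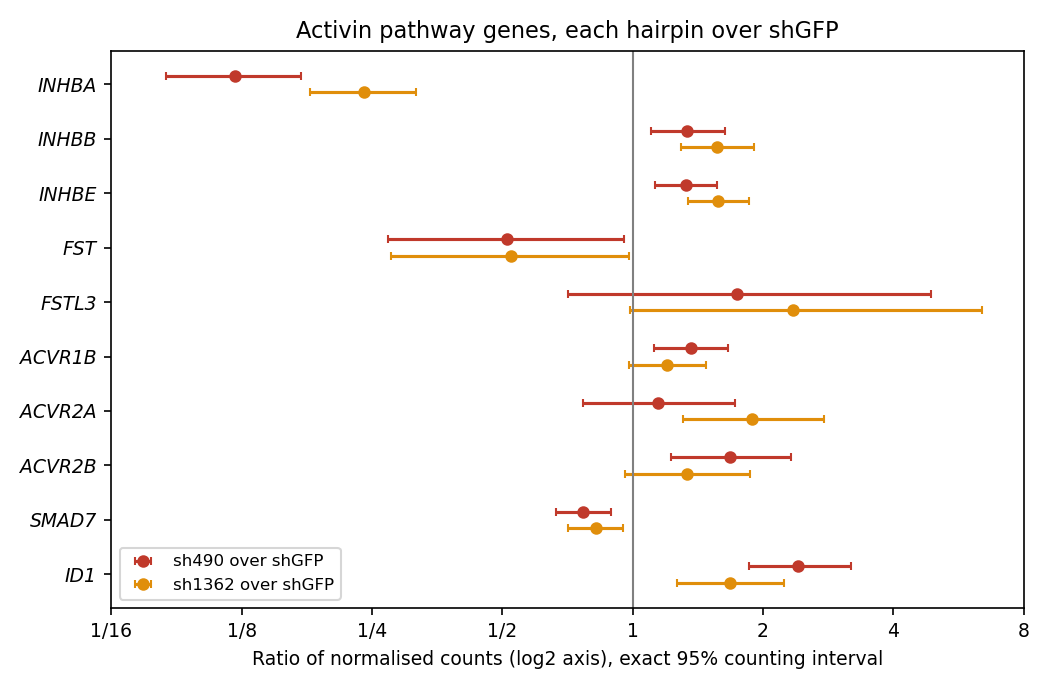
Ratio of normalised counts, sh490 over shGFP and sh1362 over shGFP, for the 10 genes on a log2 axis; bars are exact 95% intervals that cover counting error only. INHBA lies farthest from 1, at 0.121 and 0.239, and FSTL3 has the widest intervals.

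By edgeR's quasi-likelihood test, 0 of the 10 genes passed an adjusted p of 0.05, where 0.0255% of the 15708 genes tested did so in either direction. Of the 9 genes other than INHBA, 1 had an unadjusted p under 0.05, ID1, where 4.36% of all tested genes did, and DESeq2 and limma-voom called 0. By side alone, 7 genes were higher than shGFP with both hairpins (34.4% of all tested genes), 3 lower with both (34% of all) and 0 opposite (31.6% of all). With sh490, 1 gene was at least 2-fold higher, ID1 (4.58% of all), and 1 at least 2-fold lower, INHBA (4% of all). With sh1362, these were FSTL3 (7.51% of all) and INHBA (8.22% of all). INHBA alone was at least 2-fold lower with both (1.52% of all), and 0 were at least 2-fold higher with both (2.81% of all). INHBA was chosen by its fall with both hairpins, so its place in these counts is a description. Of the other 9 genes, 7 were higher and 2 lower with both, and 0 were at least 2-fold lower with either hairpin. The hairpin comparisons share the shGFP library, so agreement of side between them is not independent.

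Set against each other, the hairpin libraries need no control. INHBA was 1.98-fold higher in sh1362 than in sh490 (exact counting interval 1.33 to 3.01), and YES1 was 1.42-fold higher (1.16 to 1.75). ACVR2A was also higher in sh1362, 1.65-fold (1.22 to 2.23), as were INHBB, 1.17-fold (1.01 to 1.36), and INHBE, 1.19-fold (1.04 to 1.35). ID1 was lower in sh1362, at 0.694 of its sh490 level (0.572 to 0.840). The intervals of FST, FSTL3, ACVR1B, ACVR2B and SMAD7 held 1. None of the 10 reached a 2-fold difference between hairpins in log2 CPM, where 5.58% of all tested genes stood 2-fold or more above sh490 in sh1362 and 6.18% 2-fold or more below. With 1 library per hairpin these values compare libraries.

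**Figure D3:**
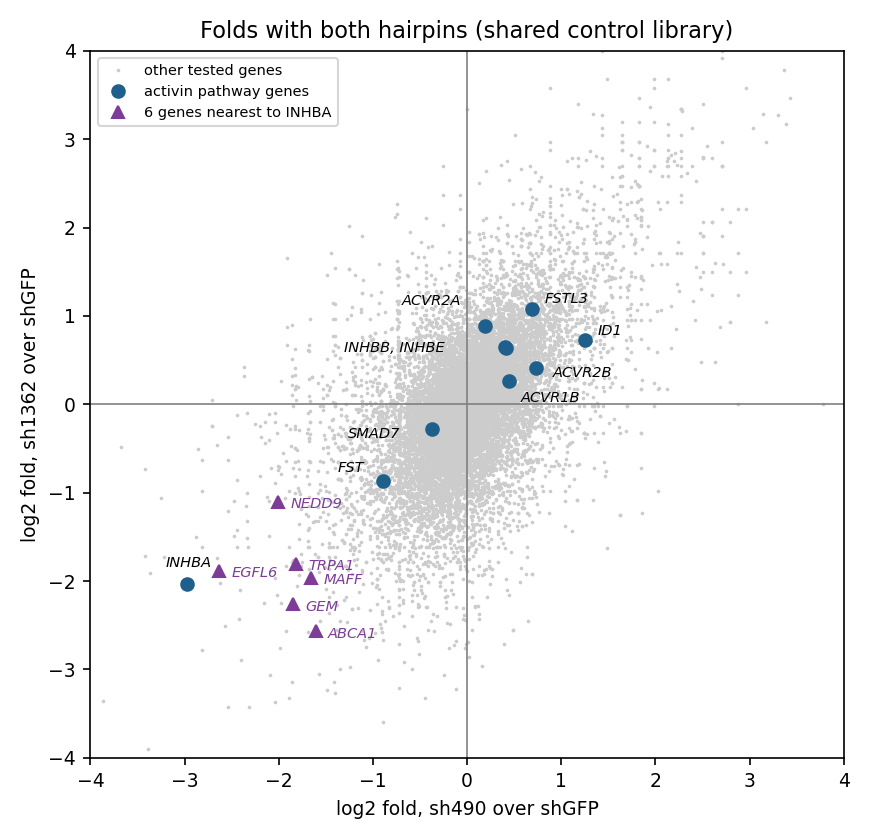
Log2 fold of each tested gene with sh490 (x axis) and sh1362 (y axis) over the same shGFP library; blue points are the 10 activin pathway genes, purple triangles the 6 protein-coding genes nearest to INHBA, and 9 genes lie outside the plotted range. INHBA lies at -2.98 and -2.03, apart from the other 9 genes, which lie between -0.89 and 1.25.

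Among 10956 other protein-coding genes averaging 5 CPM or more, EGFL6 lay nearest to INHBA in its pair of log2 folds. EGFL6, a secreted protein with EGF-like repeats, had 27 and 44 counts in sh490 and sh1362, against 110 in shGFP, 0.37 log2 units from INHBA. Next came GEM, a small GTP-binding protein, with 64 and 44 counts, against 144, and TRPA1, a cation channel, with 189 and 177, against 410. They were followed by MAFF, a small basic leucine zipper factor, with 43 and 32 counts, against 86, and NEDD9, a docking protein of focal adhesions, with 19 and 35, against 51. ABCA1, a lipid exporter, came last of the 6 with 115 and 54 counts, against 217, at a distance of 1.47. Nearness over 3 libraries is a description of these folds.

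To see whether other genes of the family differed beside INHBA, 8 wider lists with 114 genes were read in the same fit. Of the 85 tested, edgeR called 0 at an adjusted p under 0.05, and so did DESeq2 and limma-voom; 7 had an unadjusted edgeR p under 0.05, against 4.36% of all tested genes. In all, 23 were higher with both hairpins (34.4% of all tested genes), 32 lower with both (34% of all) and 30 opposite (31.6% of all). The same shares are the background for the side counts of each list below. The median log2 fold over all tested genes was 0.00 with each hairpin.

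Other ligands showed no common direction. Of 16 listed, 9 were tested: 2 were higher with both hairpins, 2 lower with both and 5 opposite, and the medians were -0.12 with sh490 and 0.26 with sh1362. At 5 CPM or more they were -0.028 and 0.097, and without a filter on low counts the median with sh1362 turned to -0.069. GDF15, a stress-induced ligand, had 934 and 811 counts in sh490 and sh1362, against 337 in shGFP (log2 folds 0.75 and 0.65). BMP2 had log2 folds of 0.67 and 0.28, BMP4 -0.41 and -0.89, and BMP6 -0.14 and -0.71. INHA, the inhibin alpha chain that pairs with a beta chain to oppose activin, had 0 and 1 counts, against 3.

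Of 12 other receptors, 9 were tested, with 2 higher with both hairpins, 5 lower with both and 2 opposite, and medians of -0.13 and -0.24 (-0.15 with sh1362 at 5 CPM or more). TGFBR3, a co-receptor that binds inhibin, had 30 and 19 counts in sh490 and sh1362, against 32 in shGFP (log2 folds -0.76 and -1.27). TGFBR2, the type II receptor of TGF-beta, had log2 folds of -0.94 and -0.24, BMPR1A 0.18 and 0.27, and BMPR1B -0.29 and -0.47. Among secreted or membrane antagonists, 5 of 10 were tested, 1 higher and 4 lower with both, with medians of -0.33 and -0.60. At 5 CPM or more they were -0.0085 and -0.028, and without a filter the one with sh1362 was -0.19. BAMBI, a decoy receptor, had 287 and 307 counts, against 140 (0.32 and 0.52). The BMP binders CHRD and GREM1 lay at -0.33 and -0.60, and at -0.31 and -0.84, while WFIKKN1 had 7 and 3 counts, against 10. Of the proprotein convertases, which cleave ligand precursors, 3 of 4 were tested, 0 higher with both, 2 lower with both and 1 opposite, with medians of -0.23 and -0.15, of which the one with sh1362 was 0.0018 at 5 CPM or more and 0.010 without a filter. PCSK6 had -0.33 and -1.47 and PCSK7 -0.02 and -0.15.

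SMADs and their regulators had medians near 0. Of 27 listed, 23 were tested, with 7 higher with both hairpins, 9 lower with both and 7 opposite, and medians of 0.03 and -0.14. SMAD3, which carries the activin signal to DNA, had 191 and 72 counts in sh490 and sh1362, against 191 in shGFP, or log2 folds of -0.71 and -1.99. ZFYVE9, an anchor that presents SMAD2 and SMAD3 to the receptor, had 642 and 708 counts, against 214 (0.87 and 1.11). The corepressor SKI had 129 and 120 counts, against 40 (0.95 and 0.95), and SMAD5, of the BMP branch, 2215 and 2029, against 1840 (-0.44 and -0.47).

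Targets of SMAD2 and SMAD3 lay below shGFP in both hairpin libraries more often than above it, and no set test was run. Of 30 listed, 23 were tested. Of these, 5 lay above shGFP in both (34.4% of all tested genes), 11 below in both (34% of all) and 7 on opposite sides (31.6% of all). The medians were -0.17 with sh490 and -0.24 with sh1362. At 5 CPM or more they were -0.24 and -0.42. THBS1, the matrix protein thrombospondin, had 139 and 88 counts in sh490 and sh1362, against 209 in shGFP (log2 folds -1.29 and -1.83). BHLHE40, a transcriptional repressor, had 46 and 54 counts, against 78 (-1.43 and -1.11). On the higher side, SNAI1 had 39 and 30 counts, against 10 (1.14 and 0.88), and EOMES, a T-box factor induced by activin in early embryos, 19 and 5 counts, against 1 (2.42 and 0.95). SNAI1 and EOMES both averaged under 5 CPM, and EOMES rests on 1 control read. PMEPA1, a widely used readout of the branch chosen here with its counts already known, had 0 counts in every library, which allows up to 0.378, 0.406 and 0.620 CPM in sh490, sh1362 and shGFP.

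Targets of SMAD1, SMAD5 and SMAD9, the branch to which ID1 belongs, were read from 16 listed genes. Of 8 tested, 4 were higher with both hairpins, 0 lower with both and 4 opposite, with medians of 0.36 and 0.13. ATOH8, a basic helix-loop-helix factor, had 167 and 145 counts in sh490 and sh1362, against 27 in shGFP (log2 folds 1.86 and 1.76). SMAD9 had 195 and 130 counts, against 73 (0.69 and 0.22), and HEY1 75 and 52, against 32 (0.50 and 0.09). The other ID genes differed from ID1: ID2 had log2 folds of 0.27 and -0.04, ID3 0.18 and -0.28, and ID4 0.41 and -0.33.

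ATF4 and stress response genes were read beside INHBE, which is known from liver cells to be induced through ATF4. All 10 were tested, with 4 higher with both hairpins, 2 lower with both and 4 opposite, and medians of -0.13 and 0.34. SESN2 had log2 folds of 0.25 and 0.90 and CEBPB 0.34 and 0.84, while ASNS had -0.93 and -0.79 and ATF3 -0.67 and -0.36. INHBE itself lay at 0.41 and 0.65.

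**Figure D4:**
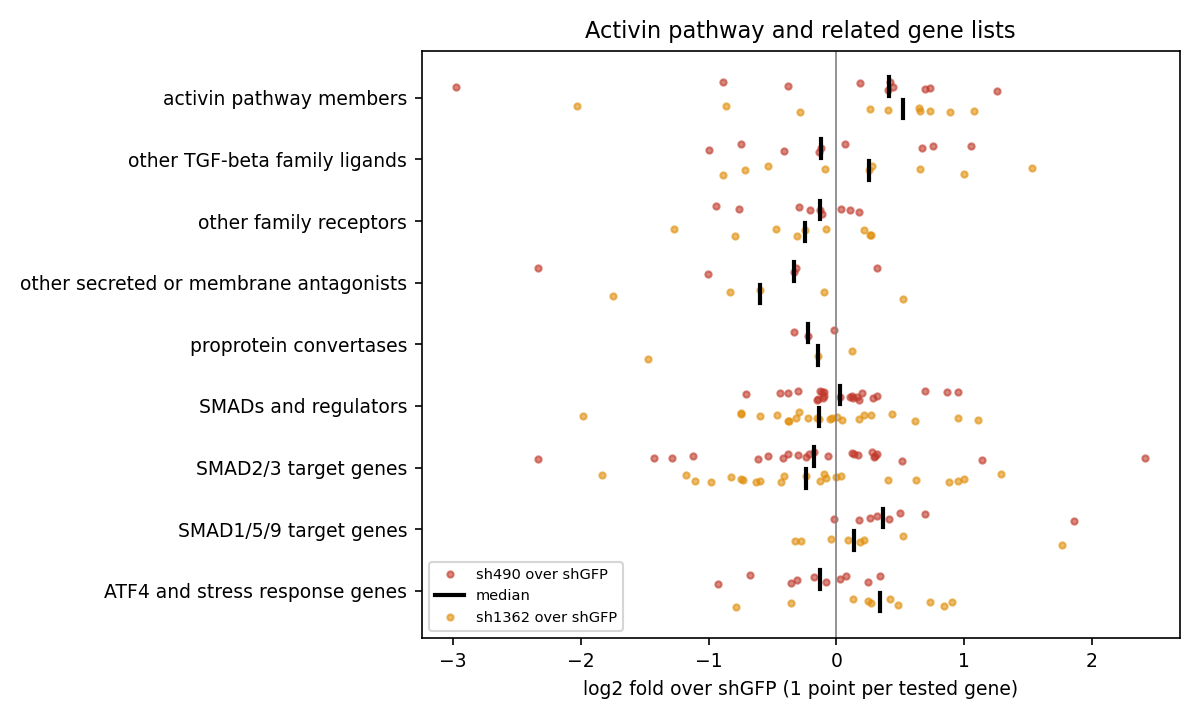
Log2 fold over shGFP of each tested gene in the activin pathway and in 8 wider lists, with sh490 in red and sh1362 in orange; black bars are medians. The medians of the 10 activin pathway genes are 0.41 and 0.52, and those of SMAD2/3 targets -0.17 and -0.24.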

How the data were processed

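Raw read counts per gene from 3 libraries were used as deposited, with no normalization. Per the submitters' processing notes, FastQC 0.11.8 and STAR 2.6.1c were used with the GRCh38 build. Counting was done by the authors with featureCounts 1.6.0 on exons of GENCODE 32, with no option set for strand or multi-mapping reads, per the file headers. Reads from both strands were therefore added and reads shared by genes left out.

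Symbols were matched for 60295 of 60609 gene IDs, and biotypes were taken from GENCODE 29. Both YES1 hairpin libraries were compared with shGFP in edgeR 4.0.16 (R 4.3.3) with TMM, filterByExpr and a two-sided, robust quasi-likelihood test, with Benjamini-Hochberg adjustment over all 15708 tested genes. Only 1 residual degree of freedom, moderated across genes, gives the spread, and shGFP is assumed to vary like the hairpin libraries. That spread is the one between sh490 and sh1362, so it holds differences between the hairpins. No label says that the libraries are separate cultures, and part of the spread may be technical. The p-values therefore do not measure variation between replicates of 1 condition. The SE of an edgeR log2 fold was derived from the test, as the absolute fold divided by the square root of its F statistic. Log2 folds of 1 hairpin are differences in log2 CPM with a prior count of 2 and have no test. Intervals of ratios are exact 95% intervals conditional on the summed counts, and those of levels are exact Poisson intervals. The reads carry no molecular identifiers, and therefore these intervals, and the limit of 3 counts that a count of 0 allows, cover counting error only.

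The genes described and all lists were chosen with earlier results of these data known. Named list genes were the 4 tested genes per list with the largest fold shared by both hairpins. Also named were the 6 genes nearest to INHBA, and INHA, ACVR1C, PMEPA1, the other ID genes and overlapping genes. INHA, ACVR1C, PMEPA1 and the other ID genes were added after their values were seen. The alternatives tried were DESeq2 1.42.0, limma-voom (limma 3.58.1), other size factors, filters, a prior count of 0.5, and library totals without red cell and mitochondrial genes.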

Additional observations from a re-analysis of the deposited data

How the results depend on the processing

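No paired analysis was possible because the labels give no replicate numbers that the hairpin and control libraries share. Without the filter on low counts edgeR called 1 of the 10 activin pathway genes (INHBA) and 1 gene of the wider lists (THBS1, adjusted p 0.0189), where the other fits, with DESeq2 size factors, on genes averaging 5 CPM or more, or with totals without red cell and mitochondrial genes, DESeq2 and limma-voom, called 0. That fit called 22 genes higher and 36 lower over all genes, against 0 and 4 in the main one. INHBA was chosen by this contrast, so its call is no test of it. At 5 CPM or more, 0 of the 10 were 2-fold higher with sh1362, because FSTL3 is left out. Under that filter the medians were -0.15 for other receptors with sh1362, -0.0085 and -0.028 for antagonists with sh490 and sh1362, -0.12 and 0.0018 for convertases, and -0.24 and -0.42 for SMAD2/3 targets. Without a filter they were, with sh1362, -0.069 for other ligands, -0.19 for antagonists, 0.010 for convertases and -0.16 for SMAD2/3 targets. These lists then held other genes. The mean log2 fold of INHBA was -2.50, and it ranged from -2.98 to -2.03 when 1 hairpin library was left out, which gives a value with no test. Leaving out shGFP leaves no comparison. In 116 folds of the 10 genes per hairpin under 6 other settings, 0 changed sign. The shallowest library, shGFP, had 7 counts for FSTL3 and 25 for FST, which limits both.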
